A study of Homo sapiens with 12 samples.

Results

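The 8 genes described here encode the subunits of condensin I and condensin II: SMC2, SMC4, NCAPD2, NCAPD3, NCAPG, NCAPG2, NCAPH and NCAPH2. They were taken by symbol, matched to Ensembl identifiers, from a deposited table of 63241 genes, and all 8 passed the filter on low counts that left 23593 genes for testing. Condensins are ring-shaped complexes that extrude loops of DNA and compact chromosomes for mitosis. Both complexes share the ATPase pair SMC2 and SMC4. Each adds a kleisin that closes the ring (NCAPH in condensin I, NCAPH2 in condensin II) and a pair of HEAT-repeat subunits (NCAPD2 and NCAPG, or NCAPD3 and NCAPG2). Condensin II resides in the nucleus through the cell cycle, whereas condensin I reaches chromosomes mainly after the nuclear envelope breaks down.

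Total RNA depleted of ribosomal RNA was sequenced from HCT116, a human colorectal carcinoma line, in 4 groups of 3 libraries. The control was wild-type HCT116 given DMSO for 8 h. In the POLR1A-depleted group (line POLR1A-AID1) an auxin-responsive degron, a protein tag that triggers proteasomal breakdown, was fused to the largest subunit of RNA polymerase I. Its receptor OsTIR1 was switched on with 1 µg/ml doxycycline starting 24 h ahead, after which indole-3-acetic acid (IAA) was given at 500 µM for 8 h. In the POLR2A-depleted group the largest subunit of RNA polymerase II carried the second-generation tag (line POLR2A-AID2), and the ligand was 5-Ph-IAA at 1 µM for 8 h. The actinomycin D group was wild-type HCT116 with the DNA-binding transcription inhibitor at 5 µg/mL for 6 h. These times are from the titles; the extraction text puts harvest at 6 h. No library came from a degron line without ligand, so the line, the inducer and the ligand cannot be told apart from the loss of the polymerase. The replicates were dishes treated on 1 day, and p-values therefore capture dish-to-dish spread alone. The design text asks about the link between genome organization and the activity of these polymerases.

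Library totals ran from 11289094 to 27393969 estimated counts. The share of counts from mitochondrial genes ran from 6.14% to 8.27% in control libraries. It was 5.62% to 6.03% after POLR1A depletion, 8.74% to 10.5% after POLR2A depletion and 3.51% to 3.65% after actinomycin D. Degrons remove protein, so the mRNA of the target does not check the labels: POLR1A mRNA averaged 237 CPM in controls and 148 in its own depletion, and POLR2A mRNA 514 CPM in controls and 1090 in its own depletion. Of 11 intestinal epithelial markers, 9 were above 1 CPM in controls, and LGALS4 and CDX1 were at 0 there. The summed level of these markers was 3680 to 4170 CPM in controls. It was 2030 to 2190 CPM after POLR1A depletion, 2490 to 2700 after POLR2A depletion and 3350 to 3640 after actinomycin D. The 6 mesenchymal markers summed to 12.5 to 13.4, 48.1 to 49.6, 23.8 to 27.2 and 15.5 to 19.4 CPM in the same order, and none was at 0. The 6 blood markers summed to 2.22 to 2.94, 2.49 to 2.9, 8.78 to 10.2 and 3.1 to 3.29 CPM in the same order, with CD3E at 0 in all groups except POLR2A depletion and CD14 at 0 in controls. The part of these shifts in the condensin values was not tested.

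The 8 genes lie on 8 chromosomes (GRCh38, GENCODE 29). SMC2 spans chr9:104094260-104141417, SMC4 spans chr3:160399274-160434962, NCAPD2 spans chr12:6493356-6531955 and NCAPD3 spans chr11:134150119-134225454. NCAPG spans chr4:17810902-17844862, NCAPG2 spans chr7:158631311-158704829, NCAPH spans chr2:96335787-96373845 and NCAPH2 spans chr22:50508216-50523472. All are protein-coding, with spans of 15.3 kb (NCAPH2) to 75.3 kb (NCAPD3).

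Many genes of chromosome segregation are controlled by the cell-cycle gene homology region (CHR, TTTGAA), which the DREAM and MMB complexes bind, and by CCAAT boxes and E2F sites. RefSeq promoter windows (GRCh38.p14; 250 bases before to 50 after a start) were found for 7 of the 8 genes, in 10 windows; NCAPH2 had none. The upstream sequences of NCAPH and NCAPG are shown because NCAPG rose and NCAPH fell with POLR1A depleted, although both belong to condensin I. Capitals mark matches on either strand to TTTGAA, to CCAAT, or to the E2F cores TTCCCGC and TTGGCGC and TTCGCGC. The NCAPH stretch (chr2:96335616-96335765, plus strand) ends at the base before the RefSeq start. The first NCAPG line (chr4:17810829-17810901, plus strand) ends where a GENCODE first exon begins, and the second (chr4:17810927-17810956) is the site nearest the RefSeq start. The sites of NCAPD2 (chr12:6493940-6493969) and SMC4 (chr3:160399558-160399587, where the motif reads on the other strand) complete the set of TTTGAA matches that lie wholly before a start.
NCAPH: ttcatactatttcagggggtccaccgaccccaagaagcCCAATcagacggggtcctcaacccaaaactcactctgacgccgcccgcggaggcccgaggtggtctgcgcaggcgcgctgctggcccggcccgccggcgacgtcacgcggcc
NCAPG upstream: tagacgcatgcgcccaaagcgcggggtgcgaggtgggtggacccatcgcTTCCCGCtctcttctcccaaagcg
NCAPG site: ccctctcGCGGGAAttaTTTGAAcgttcga
NCAPD2 site: tcctgcagccgttgagaTTTGAActcggta
SMC4 site: taatcgccgcactttttTTCAAAttagtgg

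In the NCAPG window TTTGAA begins 35 bases before the start and an E2F core on the other strand begins 45 bases before it. The NCAPH window held a CCAAT 112 bases before the start and neither of the other motifs. TTTGAA occurred in 6 of the 10 windows (SMC2, SMC4, NCAPD2, NCAPD3, NCAPG and NCAPG2), against 15.2% of 35116 RefSeq windows of the same length. It occurred in 3 of 10 when only the bases before the start were counted, against 13.3% of all windows. CCAAT occurred in 3 of 10 windows against 34.6%, and any E2F core in 3 of 10 against 3872 of the 35116. These are matches of letters and show no binding, and their part in the changes was not tested. Of the 6 genes with TTTGAA, SMC2 and NCAPD3 were not called with POLR1A depleted, and the others rose.

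Within a library, levels were compared between genes as CPM (TMM-normalised counts relative to the library size), divided by the length of all annotated exons in kilobases. Every scale used here is relative to other RNA of the same library. A rise or fall below is therefore a change relative to that RNA, and amounts per cell were not measured. In controls NCAPD2 was highest at 44 ± 1.42 CPM per kb (SD, n = 3), followed by NCAPG at 29.1 ± 3, SMC4 at 25 ± 0.637 and NCAPH at 24.8 ± 0.831. NCAPH2 followed at 19.4 ± 1.41, NCAPD3 at 17.4 ± 0.361, NCAPG2 at 15.2 ± 0.831 and SMC2 at 9.97 ± 1.37. The control values of SMC4 and NCAPH overlapped, and the lowest NCAPG value met the highest of SMC4 at 25.7 CPM per kb. With POLR2A depleted NCAPH stood at 9.38 ± 0.612 CPM per kb, overlapping SMC2 at 9.35 ± 0.975, while NCAPD2 was still highest at 46.4 ± 0.948. With actinomycin D NCAPD2 reached 75.2 ± 0.841 CPM per kb.

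NCAPH, the condensin I kleisin, showed the largest change of the 8 genes. Its control libraries held 78.6, 84 and 81 CPM, and the POLR2A-depleted libraries 30.9, 28.7 and 32.7 CPM. The POLR1A-depleted libraries held 71.5, 66.6 and 67 CPM, and the actinomycin D libraries 86.9, 78.2 and 82.7 CPM. Every POLR2A-depleted library was far below every other library, the POLR1A-depleted libraries lay between those and the controls, and the actinomycin D libraries overlapped the controls. NCAPH fell by 62.3% with POLR2A depleted (log2 fold change -1.41 ± 0.07 SE, adjusted p = 1.15e-13 by edgeR's quasi-likelihood test with Benjamini-Hochberg adjustment). Only 5.39% of tested genes had a lower value in that comparison. It fell by 15.9% with POLR1A depleted (log2 fold change -0.25 ± 0.06, edgeR adjusted p = 0.00194), a direction that became 0.10 under scaling to 13 mitochondrial mRNAs. With actinomycin D the difference was 0.02 on the log2 scale (95% interval -0.10 to 0.15, edgeR adjusted p = 0.787), and its sign turned with library totals (-0.10). With mitochondrial scaling that difference was 0.94 and called higher. In bulk RNA, fewer cells that transcribe a gene and less of its RNA per cell cannot be told apart. The depth behind NCAPH with POLR2A depleted was 394 to 484 counts per library.

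NCAPH2 is the condensin II kleisin. Its control libraries held 59.7, 66.5 and 58.1 CPM, the POLR1A-depleted 72.9, 68.5 and 81.8, the POLR2A-depleted 68.4, 66.6 and 68.6, and the actinomycin D libraries 75.3, 71.4 and 71.7. All 9 treated libraries were above all 3 controls, by a small margin for the lowest. NCAPH2 rose 21% with POLR1A depleted (log2 fold change 0.28 ± 0.07, edgeR adjusted p = 0.00201) and 18.4% with actinomycin D (0.24 ± 0.07, edgeR adjusted p = 0.00389; not called with library totals, 0.13). With POLR2A depleted its value of 0.14 missed the threshold (edgeR adjusted p = 0.0774) and turned to -0.15 with mitochondrial scaling. It was called higher with DESeq2 (0.19), relative log expression factors (0.19) and library totals (0.27). Without control replicate 2 the value was 0.19 and passed.

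The ratio of NCAPH to NCAPH2 within a library does not depend on how libraries are scaled. It was 1.27, 1.22 and 1.34 in controls, 0.945, 0.937 and 0.789 with POLR1A depleted, 0.435, 0.415 and 0.459 after POLR2A depletion, and 1.11, 1.06 and 1.11 after actinomycin D (counts per kb of exon). The 4 groups did not overlap, and each treated group was below the controls. NCAPH was in excess over NCAPH2 in every control library, and NCAPH2 over NCAPH in every library of either depletion.

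**Figure D1:**
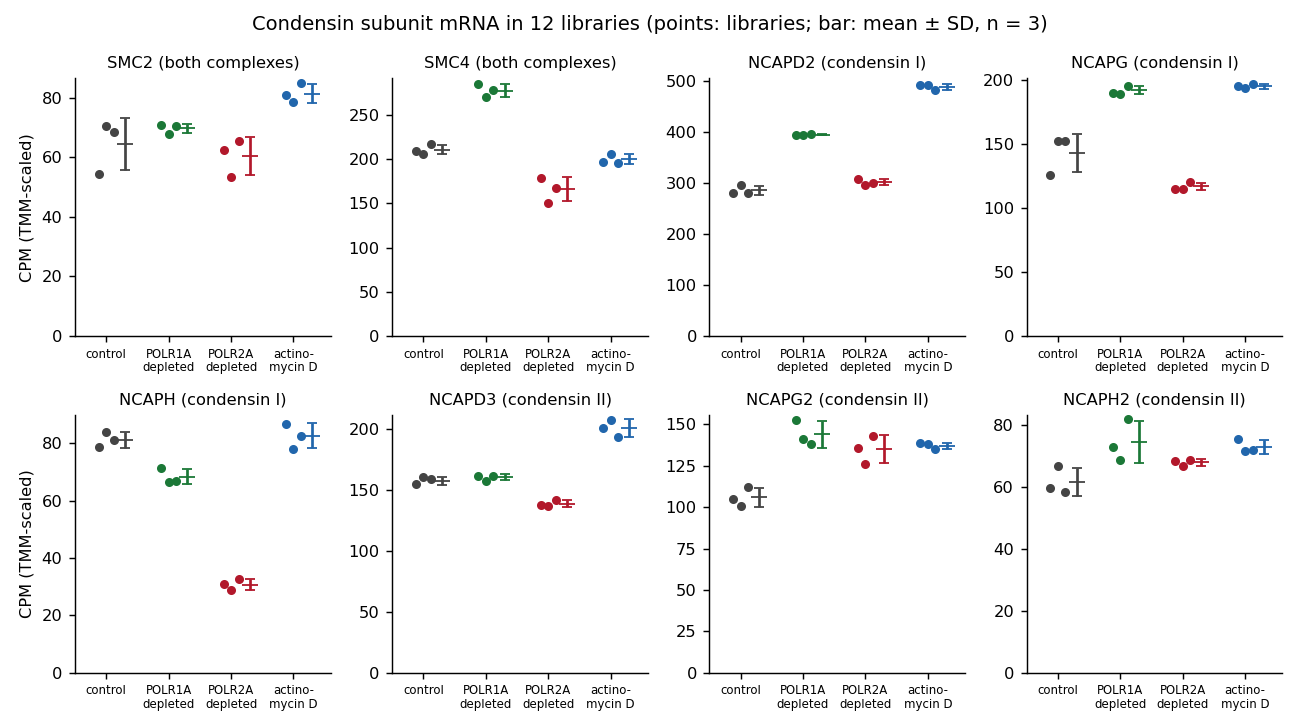
TMM-scaled CPM (vertical axes, starting at 0) of the 8 condensin genes in each of the 4 groups; points are libraries, and bars are mean ± SD of 3. NCAPH stood near 30.7 CPM with POLR2A depleted against 81.2 in controls, and NCAPD2 rose from 285 to 488 CPM with actinomycin D.

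NCAPD2, the HEAT-repeat subunit that helps to load condensin I, was the member that rose most. Its control libraries held 280, 296 and 280 CPM, the POLR1A-depleted 394, 394 and 395, the POLR2A-depleted 308, 296 and 299, and the actinomycin D libraries 491, 491 and 482. The POLR1A-depleted and actinomycin D libraries were each above all controls, and the actinomycin D libraries were the highest. NCAPD2 rose 71% with actinomycin D (log2 fold change 0.77 ± 0.05, edgeR adjusted p = 3.88e-12) and 38.2% with POLR1A depleted (0.47 ± 0.05, edgeR adjusted p = 2.49e-08). With POLR2A depleted the difference of 0.08 was not called (95% interval -0.02 to 0.17, edgeR adjusted p = 0.147), and it was -0.22 with mitochondrial scaling and -0.02 without the filter. It was called higher with DESeq2 (0.13), relative log expression factors (0.13) and library totals (0.20). A small Cajal body RNA (SCARNA10) and a sense-intronic RNA lie inside NCAPD2 on the same strand. They also rose with actinomycin D, by 0.86 and 0.55 on the log2 scale, and reads they may share with NCAPD2 were not separated here. The pseudogene NCAPD2P1 held 619 counts in all 12 libraries.

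NCAPD3 is the condensin II counterpart. Its libraries held 155, 161 and 159 CPM in controls, 162, 158 and 162 with POLR1A depleted, 138, 137 and 142 after POLR2A depletion and 201, 208 and 194 after actinomycin D. The actinomycin D libraries were above and the POLR2A-depleted libraries below all controls, and the POLR1A-depleted libraries overlapped them. It rose 27% with actinomycin D (log2 fold change 0.34 ± 0.05, edgeR adjusted p = 1.7e-06). It fell by 12.1% with POLR2A depleted (-0.19 ± 0.05, edgeR adjusted p = 0.00184; -0.06 and not called with library totals). With POLR1A depleted the interval ran from -0.07 to 0.12, while mitochondrial scaling gave 0.37, called higher. The ratio of NCAPD2 to NCAPD3 was 2.53 ± 0.0614 in controls, 3.44 ± 0.0479 after POLR1A depletion, 3.04 ± 0.089 after POLR2A depletion and 3.41 ± 0.092 after actinomycin D (SD, n = 3). All 9 treated libraries were above all controls, so for this pair the balance moved towards the condensin I member in each treatment.

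NCAPG, the other HEAT-repeat subunit of condensin I, held 126, 152 and 152 CPM in controls and 115, 115 and 120 with POLR2A depleted. With POLR1A depleted it held 190, 189 and 195, and with actinomycin D 195, 194 and 197. Control replicate 1, with 12235068 counts, was the lowest control by a wide gap. No treated group overlapped the controls, while the POLR1A-depleted and actinomycin D libraries overlapped each other. NCAPG rose 33.5% with POLR1A depleted (log2 fold change 0.42 ± 0.06, edgeR adjusted p = 4.7e-06) and 36.1% with actinomycin D (0.44 ± 0.06, edgeR adjusted p = 1.12e-06). It fell by 18.8% with POLR2A depleted (-0.30 ± 0.06, edgeR adjusted p = 0.000181).

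NCAPG2, its condensin II counterpart, was higher in all treatments. The control libraries held 105, 101 and 112 CPM, the POLR1A-depleted 153, 141 and 138, the POLR2A-depleted 136, 126 and 143, and the actinomycin D libraries 139, 138 and 135. No treated library overlapped the controls. NCAPG2 rose 35.6% with POLR1A depleted (log2 fold change 0.44 ± 0.06, edgeR adjusted p = 1.88e-06), 27.3% with POLR2A depleted (0.35 ± 0.06, edgeR adjusted p = 2.63e-05) and 29.2% with actinomycin D (0.37 ± 0.06, edgeR adjusted p = 1.1e-05). With POLR2A depleted and mitochondrial scaling its value was 0.05 and not called. The ratio of NCAPG to NCAPG2 was 1.72, 2.13 and 1.91 in controls and 1.2, 1.29 and 1.19 with POLR2A depleted. It was 1.9 ± 0.123 after POLR1A depletion and 2.02 ± 0.0475 after actinomycin D (SD, n = 3), both overlapping the controls.

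Summed over 3 subunits each, the condensin I genes exceeded the condensin II genes 1.88 ± 0.0481-fold in controls and 1.95 ± 0.0586-fold with POLR1A depleted, which overlapped. The ratio was 1.42 ± 0.0225 after POLR2A depletion and 2.16 ± 0.038 after actinomycin D (SD, n = 3), on either side of the controls and without overlap. With POLR2A depleted the ratios of the NCAPH and NCAPG pairs were below the controls, and that of the NCAPD2 pair was above them. After actinomycin D only the NCAPD2 pair was above the controls. The ratio of the NCAPG pair overlapped them there, and that of the NCAPH pair was below them.

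**Figure D2:**
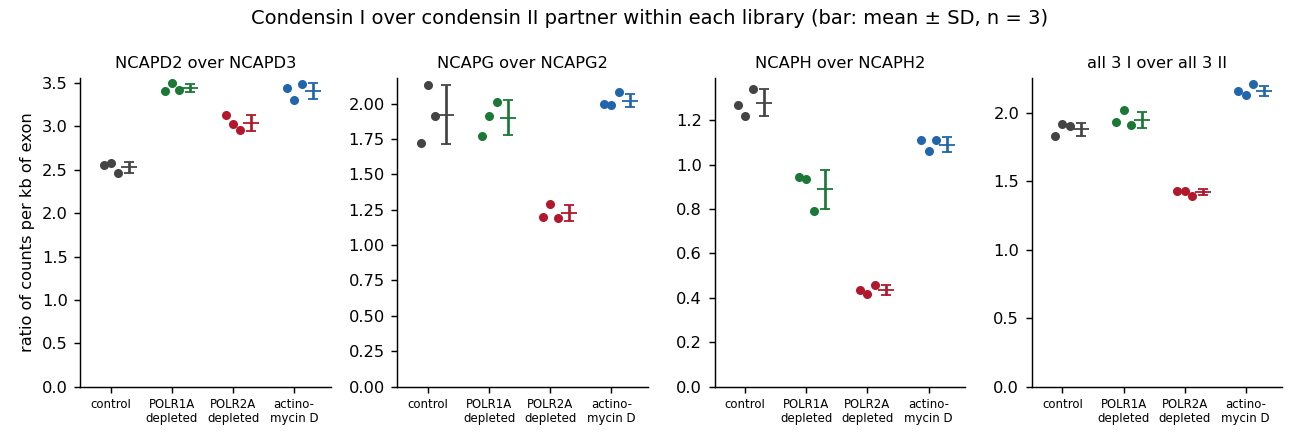
Ratio of a condensin I subunit to its condensin II counterpart within each library, from counts per kb of exon (vertical axes, starting at 0), by group; points are libraries and bars mean ± SD of 3. The kleisin ratio fell from 1.28 in controls to 0.436 with POLR2A depleted, while NCAPD2 over NCAPD3 was above the controls in every treated library.

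SMC4, the ATPase that pairs with SMC2, held 210, 206 and 217 CPM in controls, 285, 271 and 279 with POLR1A depleted, 179, 151 and 167 after POLR2A depletion and 197, 206 and 196 after actinomycin D. The POLR1A-depleted libraries were above and the POLR2A-depleted libraries below all controls, and the highest actinomycin D library came close to the lowest control. SMC4 rose 31.7% with POLR1A depleted (log2 fold change 0.40 ± 0.05, edgeR adjusted p = 3.79e-06) and fell by 21.6% with POLR2A depleted (-0.35 ± 0.06, edgeR adjusted p = 1.33e-05). With actinomycin D its -0.08 was not called (95% interval -0.19 to 0.04, edgeR adjusted p = 0.241). With library totals it was -0.20 and called lower, and it was called lower with only the 2 groups in the fit. It was 0.83 and called higher with mitochondrial scaling, and 0.01 without the filter.

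SMC2 was the most variable member in controls, at 54.3, 70.6 and 68.5 CPM (a coefficient of variation of 13.7%). It held 71, 68 and 70.6 CPM with POLR1A depleted, 62.6, 53.4 and 65.4 after POLR2A depletion, and 80.9, 78.6 and 85 after actinomycin D. The actinomycin D libraries alone cleared all controls, and SMC2 rose 26% there (log2 fold change 0.33 ± 0.08, edgeR adjusted p = 0.0028). Its 95% intervals were -0.07 to 0.29 with POLR1A depleted and -0.29 to 0.08 with POLR2A depleted. The latter value, -0.10, was 0.03 with library totals. It was called lower without control replicate 1 (-0.23), with mitochondrial scaling (-0.37) and without the filter. With POLR1A depleted, mitochondrial scaling gave SMC2 0.49, called higher. Although their proteins are obligate partners, the ratio of SMC2 to SMC4 transcripts was 0.399 ± 0.0558 in controls, 0.328 ± 0.00276 after POLR1A depletion, 0.477 ± 0.0306 after POLR2A depletion and 0.534 ± 0.0342 after actinomycin D (SD, n = 3). Every POLR1A-depleted library was below all controls, the nearest at 0.331 against 0.338, and every POLR2A-depleted and actinomycin D library was above them.

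**Figure D3:**
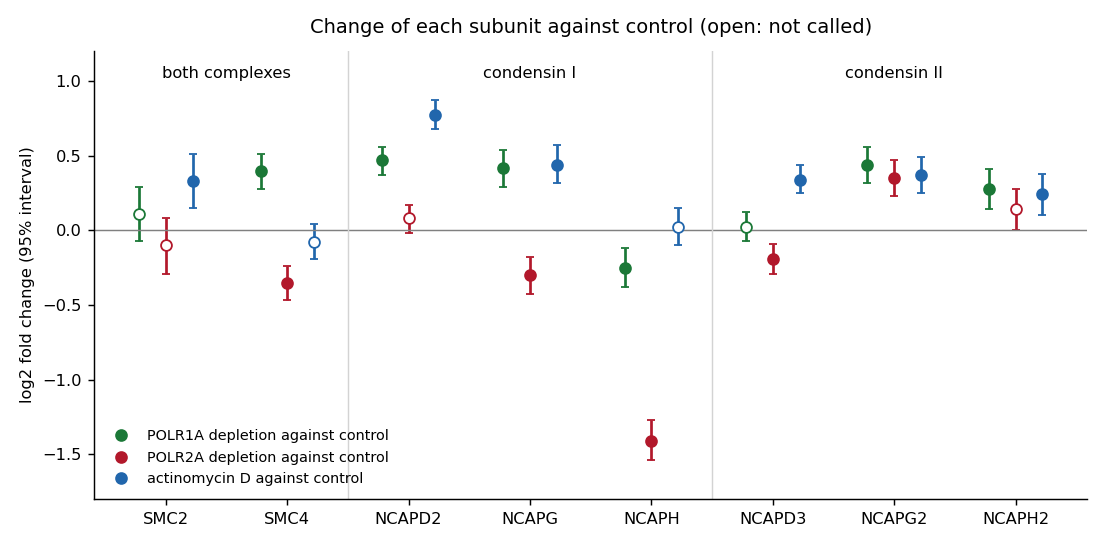
Log2 fold change against control (vertical axis) of each condensin gene in the 3 treatments, with 95% intervals of the edgeR fit; filled points were called at an adjusted p under 0.05 and open points were not. NCAPH at -1.41 with POLR2A depleted lies far from the other values, which run from -0.35 to 0.77.

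With POLR1A depleted 5 of the 8 genes rose and 1 fell, where 39.1% of all tested genes were called (20.6% higher and 18.6% lower), and 6 had groups that did not overlap, against 48.0% of all genes. With POLR2A depleted 1 of the 8 rose and 4 fell, where 61.4% of all genes were called (33.2% higher and 28.2% lower), and 7 had groups that did not overlap, against 65.2%. With actinomycin D 6 of the 8 rose and none fell, where 53.4% of all genes were called (24.9% higher and 28.5% lower), and 7 had groups that did not overlap, against 58.1%. None fell there by edgeR at an unadjusted p under 0.05 either, nor by DESeq2. The direction of this count depends on scaling: with mitochondrial mRNAs as the scale the counts became 7 and 0, 0 and 5, and 8 and 0, because that scale moved the median log2 change of all genes from 0.013 to 0.369, from 0.084 to -0.203 and from -0.061 to 0.823. With library totals they were 5 and 1, 3 and 3, and 5 and 1. With DESeq2 and with relative log expression factors 3 rose and 4 fell with POLR2A depleted, and with only the 2 groups in the fit 6 rose and 1, SMC4, fell with actinomycin D. Mitochondrial scaling gave the members 0.10 to 0.81 with POLR1A depleted, -1.70 to 0.05 after POLR2A depletion and 0.83 to 1.68 after actinomycin D. The median over the members was 0.34, -0.15 and 0.34 in the 3 comparisons. Over 9985 coding genes at an average log2 CPM of 3 or more it was 0.04, -0.22 and 0.12. Of these coding genes 35.5% were called higher and 30.6% lower with POLR1A depleted. The shares were 22.7% and 51.4% after POLR2A depletion, and 45.3% and 34.6% after actinomycin D. These comparisons share the control libraries.

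Between treatments, 6 of the 8 genes were lower with POLR2A depleted than with POLR1A depleted and none was higher, where 62.2% of all genes were called (33.2% higher and 29.1% lower). Of the 9985 coding genes at an average log2 CPM of 3 or more, 54.2% were called lower and 21.4% higher. Groups did not overlap for 6 of the 8, against 68.5% of all genes. The lowest were NCAPH at -1.16, SMC4 at -0.75 and NCAPG at -0.72 on the log2 scale. The 2 not called were NCAPG2 at -0.09 and NCAPH2 at -0.13. Without the filter both were called lower (-0.18 and -0.22), as they were with mitochondrial scaling (-0.74 and -0.77), so that 8 members were called lower in each of those settings. By edgeR no member was higher at an unadjusted p under 0.05 either, and DESeq2 called 5 lower and none higher. The call of SMC2 rested on single libraries and on the method. It was -0.21 with all libraries, -0.11 and not called without POLR2A replicate 2, and not called without POLR1A replicate 1 or 3. SMC2 was also not called with DESeq2, relative log expression factors or library totals. Conversely, NCAPG2 was called without POLR2A replicate 3 and NCAPH2 without POLR1A replicate 2.

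Against POLR1A depletion, actinomycin D left SMC4 lower (-0.48 ± 0.05 on the log2 scale, edgeR adjusted p = 1.33e-07; 0.08 with mitochondrial scaling) and 4 genes higher, where 56.2% of all genes were called (24.4% higher and 31.8% lower). Of the 9985 coding genes at an average log2 CPM of 3 or more, 41.1% were called higher and 38.5% lower. Groups did not overlap for 5 of the 8, against 63.3% of all genes. The 4 were NCAPD3 at 0.32, NCAPD2 at 0.31, NCAPH at 0.27 and SMC2 at 0.22. SMC2 lost its call in that comparison without actinomycin D replicate 1 or 3, or without any 1 of the POLR1A-depleted libraries, and NCAPH with library totals (0.11). With library totals 2 members were higher and 4 lower in that comparison, and with mitochondrial scaling 7 were higher and 0 lower. Against POLR2A depletion, actinomycin D left 6 genes higher and none lower, where 70.9% of all genes were called (31.1% higher and 39.8% lower). Of the 9985 coding genes, 60% were called higher and 22.6% lower. Groups did not overlap for 7 of the 8, against 74.3%. The 6 ran from NCAPH at 1.43 and NCAPG at 0.75 to SMC4 at 0.27. NCAPG2 at 0.02 and NCAPH2 at 0.10 were again not called. Both were called higher without the filter (0.22 and 0.29) and with mitochondrial scaling (1.23 and 1.31), giving 8 members higher in each, whereas with library totals NCAPG2 was called lower at -0.22 and NCAPH2 stood at -0.14, giving 5 higher and 1 lower. By edgeR none was lower at an unadjusted p under 0.05, and DESeq2 called 6 higher and none lower. The 3 condensin I genes, NCAPD3 of condensin II and the shared SMC2 and SMC4 were called lower with POLR2A depleted than in either other treatment. Among them, the call of SMC2 against POLR1A depletion rested on single libraries and was lost with DESeq2, relative log expression factors and library totals. SMC4 was not called against actinomycin D with library totals.

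The genes nearest in pattern were sought among 9780 coding genes by the root-mean-square (RMS) difference of centred log2 CPM over the 12 libraries, which describes these libraries and carries no test. For NCAPH they were BUB1B, a kinase of the spindle checkpoint, at an RMS of 0.0819, and SLK, a kinase of the cytoskeleton, at 0.0921. BUB1B stood at -1.50 and SLK at -1.30 on the log2 scale with POLR2A depleted. For NCAPG they were KIF2C, a microtubule-depolymerising kinesin of the centromere, at 0.0667 and the cohesin subunit STAG2 at 0.0689. NCAPD3 was nearest to PRKDC (0.034) and NELFCD (0.0358), NCAPD2 to MIB1 (0.0418) and GNB1 (0.0525), and SMC4 to STX6 (0.0558) and CDC73 (0.0643). SMC2 was nearest to G3BP2 (0.0594) and RAC1 (0.0595), NCAPG2 to OSBPL9 (0.0612) and COPB2 (0.0706), and NCAPH2 to KPNA6 (0.0577) and TDP2 (0.067). No member was among the nearest genes of another. The closest members were SMC2 and NCAPD3 at an RMS of 0.112, and NCAPG2 and NCAPH2 at 0.13. NCAPH was the farthest member for each of the other 7, at 0.406 to 0.657.

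The other genes around condensin were read from 3 lists, to be set beside these shares. With POLR1A depleted 20.6% of all genes were called higher and 18.6% lower. The shares were 33.2% and 28.2% after POLR2A depletion, and 24.9% and 28.5% after actinomycin D. Over 9985 coding genes at an average log2 CPM of 3 or more they were 35.5% and 30.6%, 22.7% and 51.4%, and 45.3% and 34.6%. Among 21 regulators and chromosome partners, which include the kinases that phosphorylate condensin, 5 were called higher and 4 lower with POLR1A depleted, 3 and 16 after POLR2A depletion and 8 and 10 after actinomycin D. With mitochondrial scaling these counts became 10 and 0, 0 and 17, and 15 and 1. KIF4A, a chromokinesin that works with condensin I, rose in all 3 treatments (0.50, 0.15 and 0.56 on the log2 scale), although with mitochondrial scaling the value with POLR2A depleted was -0.15. TOP2A, the topoisomerase that resolves sister DNA with condensin, rose by 0.46 with POLR1A depleted and by 0.29 with actinomycin D, and fell by 0.73 with POLR2A depleted. PLK1, a mitotic kinase, fell by 0.92 and CSNK2A2, a casein kinase 2 subunit, by 1.11 with POLR2A depleted. MCPH1, an inhibitor of condensin II, fell from 110 ± 6.02 to 39 ± 1.49 CPM with actinomycin D (SD, n = 3; log2 fold change -1.49, edgeR adjusted p = 5.63e-15).

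A list of 20 genes held those of the related SMC complexes, cohesin and SMC5/6, and SMCHD1, an SMC gene of neither complex. Of the 20, 5 were called higher and 8 lower with POLR1A depleted, 2 and 17 after POLR2A depletion and 7 and 8 after actinomycin D. With mitochondrial scaling these counts became 7 and 0, 0 and 17, and 15 and 2. The list median with POLR2A depleted was -0.72, against -0.15 for the condensin members. WAPL, which releases cohesin from chromatin, fell by 1.39, close to the -1.41 of NCAPH, and SMCHD1 fell by 1.19. NSMCE3, of SMC5/6, fell from 18.8 to 2.74 CPM with actinomycin D. RAD21, the cohesin kleisin, rose by 0.45 with actinomycin D.

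A list of 16 genes held DREAM, MMB and related cell-cycle transcription factors, and the cell-cycle genes CENPF and CKS1B. Of the 16, 5 were called higher, CENPF and CKS1B among them, and 6 lower with POLR1A depleted. The counts were 4 and 8 after POLR2A depletion and 7 and 5 after actinomycin D. With mitochondrial scaling these counts became 6 and 1, 0 and 9, and 12 and 0, and with library totals 6 and 6 in each of the comparisons with a depletion. E2F4, a repressor E2F found in DREAM, fell by 0.56 with POLR1A depleted (-0.22 and not called with mitochondrial scaling) and by 1.07 with POLR2A depleted. MYBL2, the activator of MMB, fell by 0.56 (-0.21 and not called with mitochondrial scaling) and FOXM1, which acts with MMB at mitotic genes, rose by 0.33 with POLR1A depleted. E2F1 fell by 0.95 with POLR1A depleted and rose by 0.30 with POLR2A depleted, the latter 0.02 with mitochondrial scaling. RBL2, a pocket protein of DREAM, rose by 0.75 and LIN54, its CHR-binding subunit, fell by 0.83 with actinomycin D, the latter 0.09 with mitochondrial scaling.

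**Figure D4:**
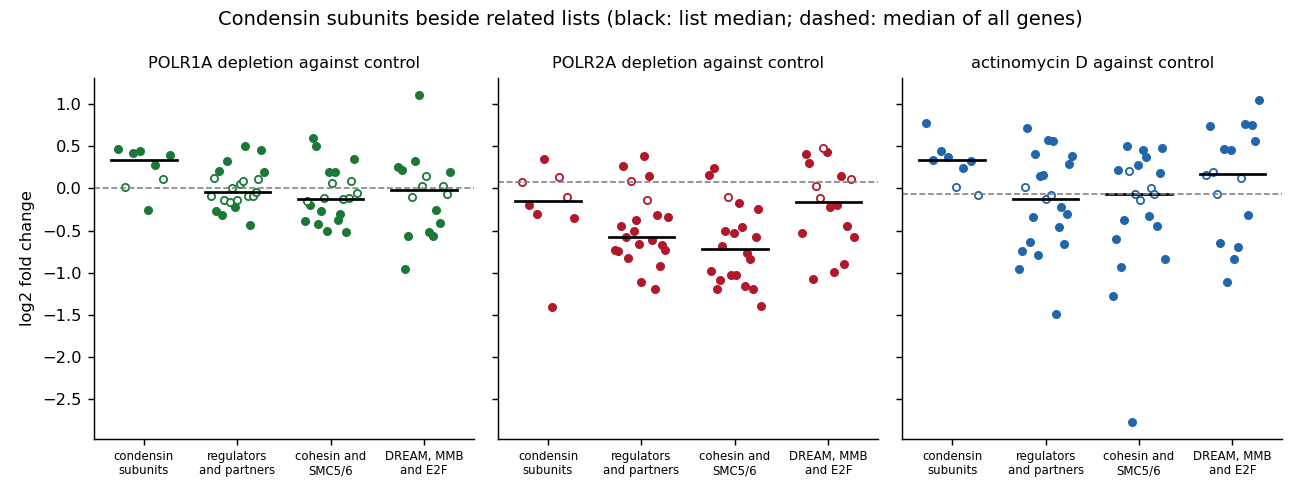
Log2 fold change against control (vertical axis) of the 8 condensin genes and of the 3 related lists in each treatment; filled points were called, black bars are list medians and dashed lines the median of all tested genes. With POLR2A depleted the condensin median was -0.15 and that of cohesin and SMC5/6 -0.72.

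Several condensin genes start beside, or overlap, a gene on the other strand. The strand setting of the counting is not given in the sources used here, so reads in overlaps may be shared. DCAF16, a substrate receptor of a ubiquitin ligase, starts 144 bases from NCAPG and does not overlap it. It fell by 0.80 with POLR1A depleted, 1.47 after POLR2A depletion and 0.25 after actinomycin D on the log2 scale (the last 0.65 with mitochondrial scaling), while NCAPG stood at 0.42, -0.30 and 0.44. LMF2, a lipase maturation factor, starts 525 bases from NCAPH2 without overlap and rose by 0.42, 0.76 and 0.71, while NCAPH2 stood at 0.28, 0.14 and 0.24. VPS26B, a retromer subunit, overlaps NCAPD3 by 810 bases and stood at 0.22, -0.95 and 0.09. IFT80, a transport protein of cilia, overlaps SMC4 by 607 bases and rose by 0.53, 0.71 and 0.78, opposite to SMC4 with POLR2A depleted. MRPL51, a mitochondrial ribosomal protein gene, overlaps NCAPD2 by 486 bases and was not called in any of the 3 comparisons with TMM scaling.

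At the other ends, TRIM59 overlaps SMC4 by 2518 bases and fell by 0.22, 0.29 and 0.95. With mitochondrial scaling the first was 0.13 and the last -0.05, neither of them called, and the first was not called with library totals either. A readthrough gene known by identifier alone (ENSG00000248710) covers all of SMC4 on the other strand, with 562 counts in all, and was not called. LCORL overlaps NCAPG by 3664 bases and stood at 0.40, 0.49 and -0.30, the last 0.62 with mitochondrial scaling, where the second was 0.20 and not called. JAM3 overlaps NCAPD3 by 1883 bases at 317 counts in all. SMC2, NCAPG2 and NCAPH had no such neighbour.

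**Figure D5:**
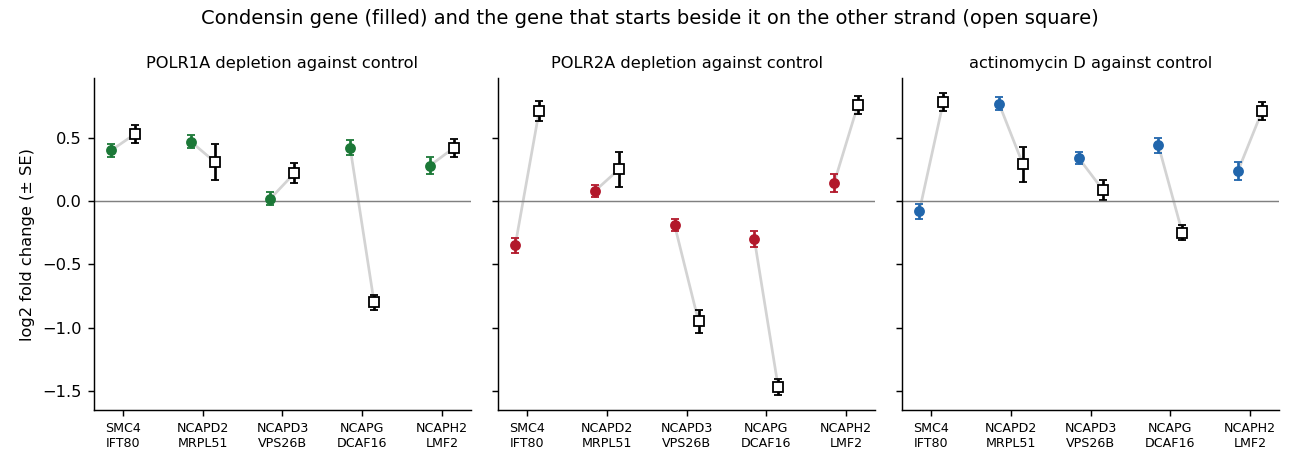
Log2 fold change against control (vertical axis, ± SE of the edgeR fit) of 5 condensin genes (filled) and of the gene that starts beside each on the other strand (open squares), in the 3 treatments. NCAPG and DCAF16, whose starts are 144 bases apart, stood at -0.30 and -1.47 with POLR2A depleted.

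An intron of SMC4 holds the hairpins of MIR15B (chr3:160404588-160404685) and MIR16-2 (chr3:160404745-160404825). Their 5p arms are printed because they share 1 seed, the bases 2 to 8 in capitals (RefSeq, GRCh38.p14).
miR-15b-5p: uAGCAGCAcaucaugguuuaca
miR-16-5p: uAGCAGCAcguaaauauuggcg
The hairpins held 9 and 0 counts over all 12 libraries. These libraries were not made for small RNA, so the counts give no level of the mature miRNAs beside the changes of SMC4.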

How the data were processed

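The authors deposited estimated counts per gene (expected counts, 76.1% of them whole) for 12 libraries of a stranded, rRNA-depleted total RNA kit. Per the submitters' processing notes the tools included RSEM 1.3.3, STAR and DESeq2 1.44.0, tied to no step, and the builds were GRCh38 and hg38. For the annotation release and strand setting the entry is: not given in the sources used here. Counts were rounded and tested with edgeR 4.0.16 (R 4.3.3; limma 3.58.1): filterByExpr, TMM, 1 robust quasi-likelihood fit over all libraries with group means and 8 residual degrees of freedom, and Benjamini-Hochberg adjustment over 23593 genes in each of 6 comparisons, called at 0.05. Precision is set by these totals and by 3 libraries a group.

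The members and lists were chosen with earlier results of these data known. Named genes were all members, up to 3 called genes per direction of each list with the largest changes in each comparison with control, the 2 genes nearest each member in pattern, overlapping genes or those starting within 1000 bases, POLR1A and POLR2A; only part of the list genes is printed, and some items are not reported here. Alternatives were DESeq2 1.42.0, other scalings (13 mitochondrial mRNAs among them), no filter, only the 2 groups, a replicate block and each library left out. The chi-square per degree of freedom between replicates was 3.52 to 9.37, so no library was a duplicate.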

Additional observations from a re-analysis of the deposited data

How the results depend on the processing

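NCAPH with POLR2A depleted kept its direction and call under every alternative run, from -1.70 with mitochondrial scaling to -1.28 with library totals. All counts of called members and of called genes stayed within 1.5 times under every alternative, although their split by direction did not. Of 36 levels and ratios, 17 moved by more than 1 SD with library totals; all 17 were CPM levels in treated groups, and the within-library ratios did not move. The cause of the following reversals was not tested, and most concern values near 0. Scaling to mitochondrial mRNAs gave NCAPH 0.10 with POLR1A depleted, NCAPD2 -0.22 and NCAPH2 -0.15 with POLR2A depleted, SMC4 0.83 with actinomycin D, and SMC4 0.08, NCAPG2 0.49 and NCAPH2 0.53 for actinomycin D against POLR1A depletion. Library totals gave SMC2 0.03 with POLR2A depleted, NCAPH -0.10 with actinomycin D, NCAPG -0.13 for actinomycin D against POLR1A depletion, and NCAPG2 -0.22 and NCAPH2 -0.14 against POLR2A depletion. No filter gave NCAPD2 -0.02 with POLR2A depleted, SMC4 0.01 with actinomycin D, and NCAPG2 0.03 and NCAPH2 0.07 for actinomycin D against POLR1A depletion. DESeq2 and relative log expression factors each gave NCAPD3 0.00 with POLR1A depleted and NCAPH2 0.03 for actinomycin D against POLR1A depletion. Only the 2 groups gave NCAPH -0.02 with actinomycin D and NCAPH2 0.03 for actinomycin D against POLR1A depletion, and leaving out each library in turn gave NCAPH2 -0.09 to 0.05 there. Mitochondrial scaling left 7 calls in the cohesin and SMC5/6 list and 7 in the DREAM list with POLR1A depleted, against 13 and 11.

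Replicate numbers did not pair the libraries: the correlation of deviations over 18 same-number pairs ran from -0.06 to 0.04, and 2 of 12 libraries matched best with their own number. With the replicate block NCAPH with POLR2A depleted stood at -1.41, and the block changed no call of a member. The lowest depth of a member was 394 counts (NCAPH with POLR2A depleted).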
